A study of Homo sapiens with 6 samples.

Results

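Histone genes code for the proteins that package DNA, and the ribosome footprints on 83 of them are described here in K562 cells depleted of N6AMT1. The 83 genes were chosen by symbol from the 19330 genes of the footprint table. They comprised 71 clustered genes, whose symbols begin with HIST1H, HIST2H, HIST3H or HIST4H, and 12 variant genes, whose symbols begin with H2AF or are H1F0, H1FX or H3F3A. H3F3B, which the same rule names, is not analysed here. Footprints were counted in 3 control (sgCtrl) and 3 N6AMT1-depleted (sgN6AMT1) libraries of K562, a human chronic myelogenous leukemia line. All cells carried a lentiviral CRISPR/Cas9 vector, were selected with puromycin for 48 h and were harvested 10 days after infection. The sgCtrl guides targeted the olfactory receptor genes OR11A1 and OR2M4 (spelled OR2M49 in the sample labels), and the sgN6AMT1 guide targeted N6AMT1, a methyltransferase that modifies the release factor eRF1 and has been linked to methylation of histone H4. Which control guide went into which library is not given in the sources used here, and the cells were transduced populations rather than selected clones.

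Core histones H2A, H2B, H3 and H4 form the protein spool of the nucleosome, and the linker histone H1 binds the DNA where it enters and leaves that spool. The clustered genes are replication-dependent. They are read mainly in S phase, lack introns as a rule, and end in a conserved stem-loop in place of a poly(A) tail, which stem-loop binding protein (SLBP) recognizes for 3′ end formation, translation and decay of the message. The variant genes are mostly expressed throughout the cell cycle from polyadenylated messages, and their products replace or supplement the replication-dependent proteins at particular sites, as H3F3A does with the histone H3.3 that is deposited outside replication.

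The stem-loop was read in the first 100 bases after the stop codon of each matched transcript (GENCODE release 44, GRCh38), as 6 paired bases that begin GG, a loop of 4 bases that begins with T, and at most 1 mismatch in the stem. It was found in 66 of 69 clustered transcripts, between 22 and 67 bases after the stop codon, and in 0.556% of 17456 other listed transcripts. Among the 12 variants it was found in H2AFX alone. The 3 clustered transcripts without it, HIST1H2BD, HIST1H2BN and HIST2H2BF, are listed as isoforms with more than 1 exon. HIST2H4A, listed with 2 exons and annotated as a target of nonsense-mediated decay, carried the stem-loop. These sequences are shown because they are the feature that separates clustered from variant messages. Capitals mark the stem and lower case the loop.
HIST1H1C, and most H1, H2A, H2B and H3 genes: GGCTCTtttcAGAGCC
HIST1H4A, and most H4 genes: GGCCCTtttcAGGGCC
HIST1H2AG, with a mismatch in the stem: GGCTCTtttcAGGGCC
H2AFX: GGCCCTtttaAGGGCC
All 14 H4 transcripts carried the GGCCCT stem, and none of the other clustered transcripts did. H2AFX carried the H4 form of the stem.

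The sgCtrl libraries held 2031944 to 2969736 counts and the sgN6AMT1 libraries 1821356 to 2277616, and 9202 genes passed the filter on low counts. The counts of N6AMT1 itself were 25, 24 and 34 in the controls against 10, 9 and 8 after its targeting (log2 fold change -1.51, SE 0.31, edgeR adjusted p 6.69e-05). All 12 erythroid and leukemia markers of K562 passed the filter, against 1 of 8 markers of other blood cells. Counts were scaled to CPM, the counts per 1000000 of the normalized library size, fold changes are sgN6AMT1 over sgCtrl on the log2 scale, and a gene was called past an adjusted p of 0.05.

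Footprints on histone genes were lower in N6AMT1-depleted cells. Of the 83 genes, 74 passed the filter, 44 of these were lower and 2 were higher past the threshold, and 28 were not past it. Among all genes tested, 13.9% were lower and 12.9% were higher. The log2 fold change was negative for 67 of the 74, with a median of -0.25, against 0.01 for all genes tested. In 46 of the 74 all depleted libraries lay below all controls, and in 4 all lay above; the shares of all genes tested were 19.2% and 18.4%. With DESeq2, 36 histone genes were lower and 1 was higher, against 6.91% and 5.49% of all genes with an adjusted p. The 83 genes together took 5.85%, 5.51% and 5.93% of control counts against 4.84%, 5.11% and 5.36% of the counts after depletion, with no overlap between the groups. In bulk cells, fewer cells in S phase and less message per cell cannot be told apart, and footprints change with the amount of message as well as with its translation. RNA sequencing was not used here, so these contributions were not separated.

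**Figure D1:**
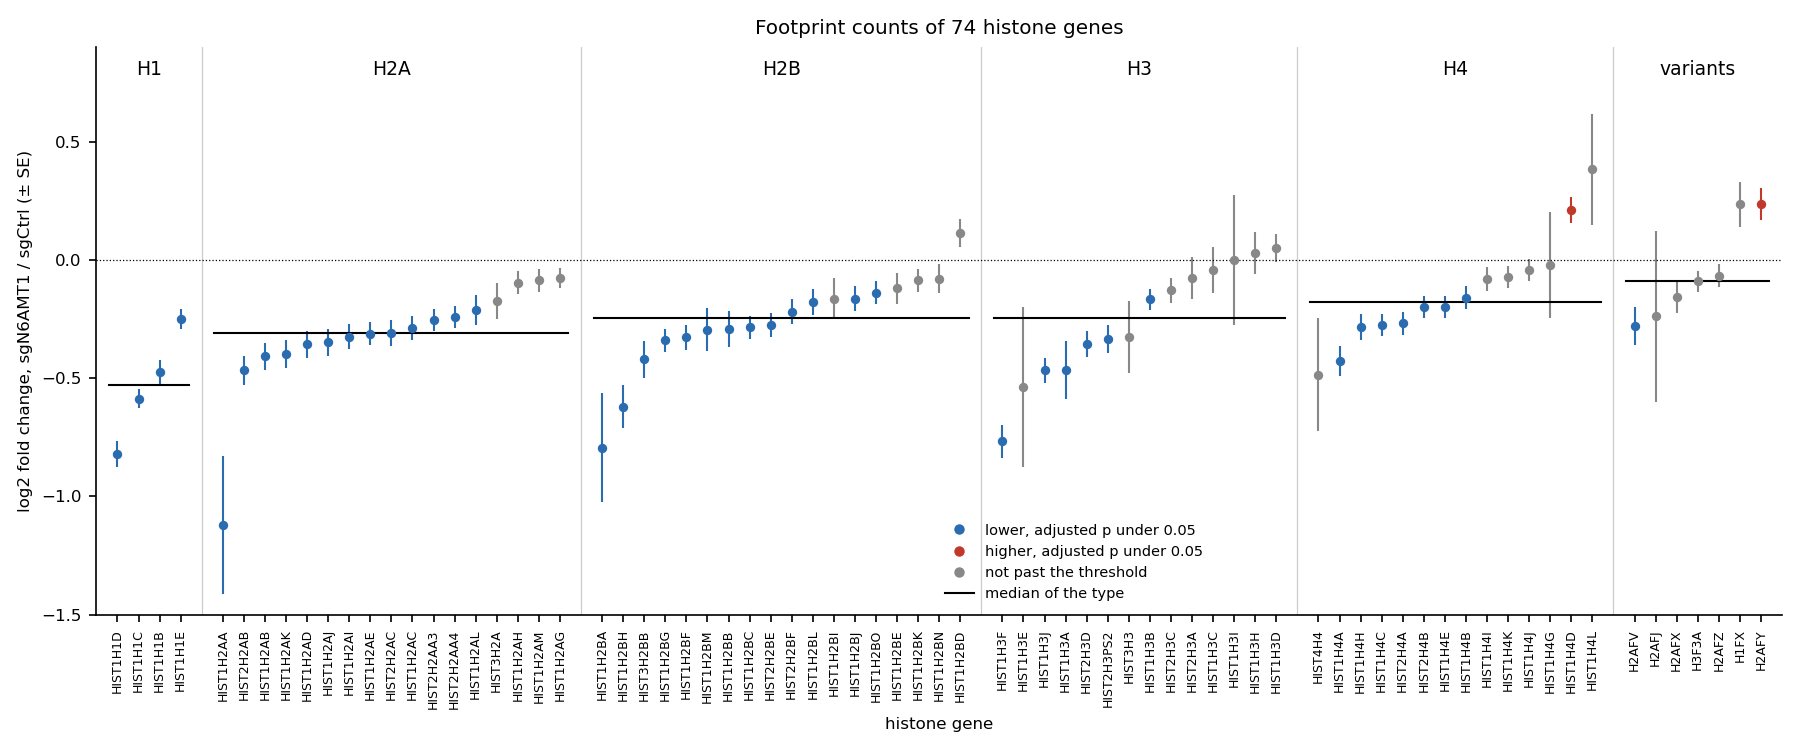
Log2 fold change (sgN6AMT1 over sgCtrl, vertical axis, ± SE) of the 74 histone genes tested, grouped by histone type and ordered within it, with the variants at the right. Blue genes were lower and red genes higher at an adjusted p under 0.05, grey genes were not past it, and black lines are the medians. All 4 H1 genes are blue, and the 2 red genes are HIST1H4D and H2AFY.

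Other scalings gave the same direction. With total counts in place of normalization factors, 39 of the 74 were lower and 4 were higher, while 10.6% and 17% of all genes tested were lower and higher. Histone coding sequences (CDS) are short and rich in G and C, and the 1531 other genes tested with a CDS under 700 bases had a median of 0.07, opposite in sign to that of the histone genes. Of these short genes 9.73% were lower and 18.1% higher. Their median GC content was 51.4%, against 61.2% for the clustered histone genes tested, so they were chosen by length and not by GC content. With loess trends of counts against CDS length and GC content removed from each library, 62 of the 74 were lower and 0 were higher (edgeR, with 1 higher at an unadjusted p under 0.05), against 17.2% lower and 12% higher of all genes tested. Of the 46 histone genes past the threshold, 35 were past it in the same direction in all 14 alternatives run, and no call changed direction in any of them.

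Most of the genes that fell were clustered genes. Of 67 clustered genes tested, 43 were lower and 1 was higher, with a median of -0.27. Of 7 variant genes tested, 1 was lower and 1 was higher, with a median of -0.09. This contrast depended on the setting. With the CDS length and GC trends removed, the variants H2AFV, H2AFX, H2AFZ and H3F3A were all lower past the threshold and 0 were higher. The variant median was then -0.21 and the clustered median -0.35. Summed over all clustered genes, footprints came to 56370.3, 53103 and 57374 CPM in sgCtrl and 44607, 47120.2 and 49783 CPM in sgN6AMT1, a mean change of -15.2% with no overlap. The variants summed to 3326, 3273 and 3385 CPM in sgCtrl and 3134, 3169 and 3216 CPM in sgN6AMT1, a mean change of -4.66%, also without overlap in CPM. As a share of total counts the variant groups overlapped, at 0.326%, 0.320% and 0.330% in sgCtrl and 0.318%, 0.322% and 0.325% in sgN6AMT1. The difference between the classes was not tested.

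By type, the change in summed footprints was largest for H1, the linker histone. The 6 clustered H1 genes summed to 9608, 9505 and 9786 CPM in sgCtrl and 6700.5, 6893 and 7319 CPM in sgN6AMT1, a mean change of -27.6%. H2A changed by -15.2%, from 14102 ± 709 CPM (SD, n = 3) to 11960.2 ± 663 (SD, n = 3). H2B changed by -13.0%, from 11223 ± 702 CPM (SD, n = 3) to 9761 ± 676 (SD, n = 3), and H4 by -10.1%, from 10727 ± 221 CPM (SD, n = 3) to 9638 ± 265 (SD, n = 3). For these types no sgN6AMT1 library reached an sgCtrl library in CPM. As a share of total counts the H2B groups overlapped, at 1.14%, 1.02% and 1.13% in sgCtrl and 0.914%, 1.01% and 1.05% in sgN6AMT1. The H3 sum changed by -11.0%, from 9931 ± 567 CPM (SD, n = 3) to 8841 ± 706 (SD, n = 3), and its groups overlapped, since sgN6AMT1 replicate 3 (9562 CPM) lay above sgCtrl replicate 2 (9278 CPM). A sum is not affected by how reads were split among the genes within it, but the listed genes H2BFS and RP1-34B20.21, which share sequence with H2A, H2B and H3 genes, lie outside these sums. Taken per kilobase of CDS, H1 stood to the clustered core histones as 0.119, 0.126 and 0.119 in sgCtrl and as 0.102, 0.0990 and 0.0998 in sgN6AMT1, so that the linker share was lower in every depleted library. HIST1H2BB and HIST1H4H, which had no matched CDS, are left out of this ratio.

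**Figure D2:**
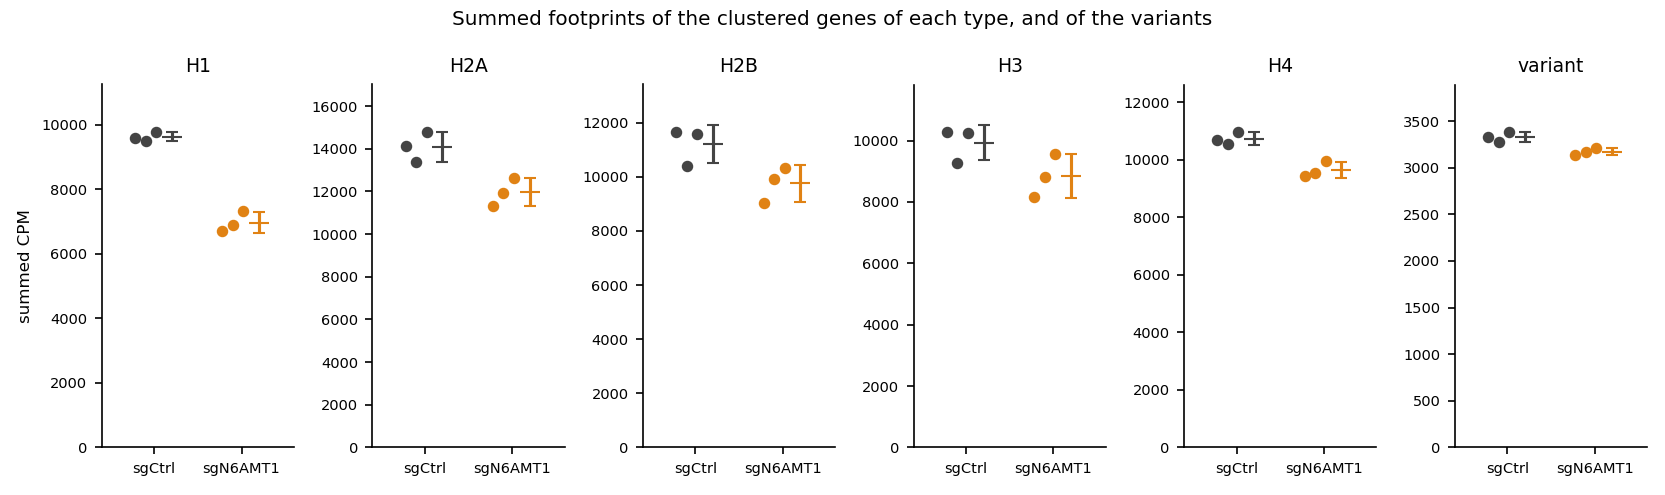
Summed footprints (CPM, vertical axes from 0) of the clustered genes of each type and of the variants, in each library, with points for libraries and bars for the mean ± SD of 3 libraries. The H1 groups are the farthest apart, the H3 groups overlap, and within sgN6AMT1 the third library is the highest in all 6 panels.

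Of the clustered H1 genes, HIST1H1C, HIST1H1E, HIST1H1B and HIST1H1D passed the filter, and all 4 fell. They lie in the HIST1 cluster of chromosome 6 (GRCh38), HIST1H1C (now H1-2) at chr6:26055740-26056470, HIST1H1E (H1-4) at chr6:26156329-26157115, HIST1H1D (H1-3) at chr6:26234212-26234987 and HIST1H1B (H1-5) at chr6:27866792-27867588, each as a single exon with its CDS. HIST1H1C ranked number 10 of all 19330 genes by mean CPM and HIST1H1E number 16. Both are linker histones found in most somatic cells.

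HIST1H1C had 4919, 4920.1 and 4949 CPM in sgCtrl and 3161, 3254 and 3432 CPM in sgN6AMT1. Its sgCtrl libraries lay close together and above all depleted libraries (log2 fold change -0.59, SE 0.04, edgeR adjusted p 6.65e-23), a change of -33.4%. HIST1H1D fell furthest of the 4, from 607, 601 and 617 CPM to 334, 347 and 353 CPM (log2 fold change -0.82, SE 0.05, edgeR adjusted p 9.74e-24). HIST1H1B went from 872, 820.2 and 879 CPM to 569, 600.1 and 682 CPM (log2 fold change -0.48, SE 0.05, edgeR adjusted p 1.55e-12). HIST1H1E, the second most abundant, fell least, from 3210.3, 3162 and 3341 CPM to 2636, 2691 and 2851 CPM (log2 fold change -0.25, SE 0.04, edgeR adjusted p 1.11e-06). In each of the 4 the groups did not overlap. Per kilobase, HIST1H1C made up 52.0% ± 0.594 (SD, n = 3) of clustered H1 footprints in controls against 47.9% ± 0.167 (SD, n = 3) after depletion, while HIST1H1E went from 33.2% ± 0.466 (SD, n = 3) to 38.7% ± 0.199 (SD, n = 3).

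The variant H1FX (H1-10), a linker histone outside the clusters, went the other way without passing the threshold: 95.4, 85.5 and 89.2 CPM in sgCtrl and 96.9, 107 and 114 CPM in sgN6AMT1 (log2 fold change 0.23, SE 0.09, edgeR adjusted p 0.0552). Its sgN6AMT1 values lay above all sgCtrl values by a small margin, and its share of all H1 footprints per kilobase was 0.942% ± 0.0509 (SD, n = 3) in controls against 1.52% ± 0.0615 (SD, n = 3) after depletion. It was past the threshold with total counts (adjusted p 0.0151), with a mean of at least 50 counts (adjusted p 0.0293), without sgCtrl replicate 1 (adjusted p 0.0458) and without sgN6AMT1 replicate 1 (adjusted p 0.0289). H1F0, the linker histone of many non-dividing cells, had 0 counts in all 6 libraries, and HIST1H1A and the testis gene HIST1H1T had 0 to 2 counts per library.

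**Figure D3:**
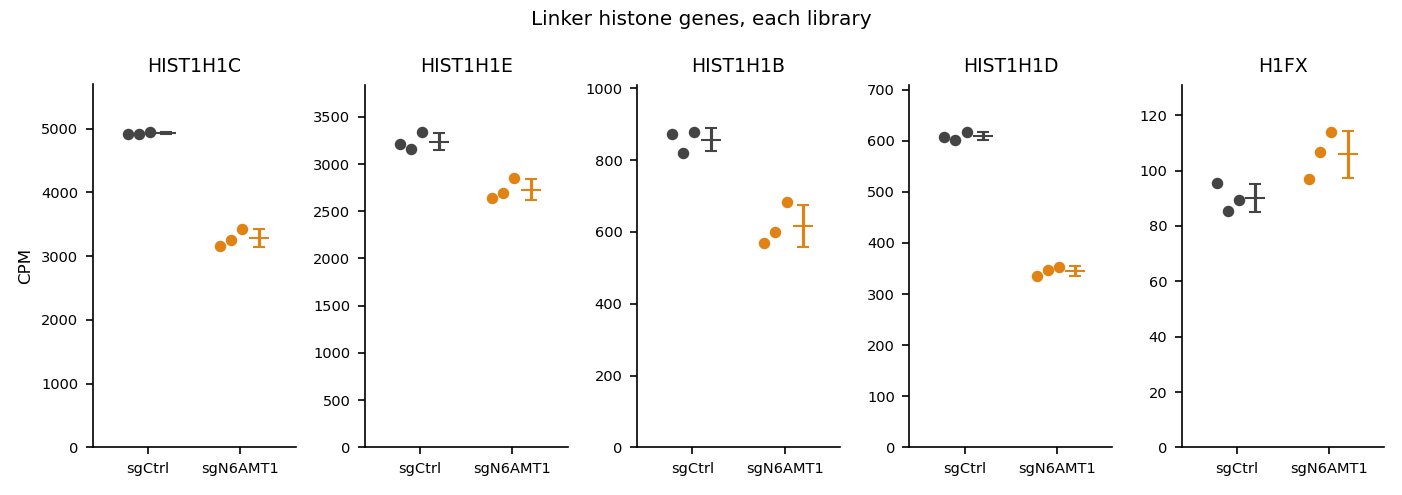
CPM (vertical axes from 0) of the 4 clustered H1 genes that passed the filter and of the variant H1FX in each library, with points for libraries and bars for the mean ± SD of 3. The clustered genes are lower in all depleted libraries, from 4929 to 3282 CPM on average for HIST1H1C, and H1FX is not.

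The 150 bases before the start of each of the 4 H1 genes are shown to set their promoter letters side by side (RefSeq, GRCh38.p14, each on its own strand, 5′ to 3′). A link between these letters and the lower footprints was not tested. Capitals mark CCAAT, the TATA box letters TATAAA, and the letters AAACACA of the H1 box, an element of linker histone promoters, each on either strand.
HIST1H1D, chr6:26234988-26235137, minus strand: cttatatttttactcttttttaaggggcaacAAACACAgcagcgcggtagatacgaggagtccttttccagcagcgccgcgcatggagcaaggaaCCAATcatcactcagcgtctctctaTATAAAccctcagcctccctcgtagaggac
HIST1H1C, chr6:26056471-26056620, minus strand: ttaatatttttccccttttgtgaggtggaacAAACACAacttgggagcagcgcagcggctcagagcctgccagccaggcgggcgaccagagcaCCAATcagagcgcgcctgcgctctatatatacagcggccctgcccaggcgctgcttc
HIST1H1B, chr6:27867589-27867738, minus strand: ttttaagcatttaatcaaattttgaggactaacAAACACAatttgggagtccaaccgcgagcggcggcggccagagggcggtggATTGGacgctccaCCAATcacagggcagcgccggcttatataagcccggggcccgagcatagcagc
HIST1H1E, chr6:26156179-26156328, plus strand: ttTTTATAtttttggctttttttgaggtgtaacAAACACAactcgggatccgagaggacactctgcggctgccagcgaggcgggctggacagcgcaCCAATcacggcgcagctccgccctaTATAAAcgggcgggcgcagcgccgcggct
AAACACA began 119 bases before the start in HIST1H1D and HIST1H1C and 117 bases before it in HIST1H1B and HIST1H1E. In windows from 250 bases before to 50 after the start, AAACACA on either strand was found in all 6 clustered H1 promoters and in 5.64% of the 35116 promoters of the table. CCAAT was found in all 6 H1, 16 H2A, 17 H2B and 13 H3 promoters matched, in 3 of 12 H4 promoters and in 34.6% of all promoters, and TATAAA in 67.2% of 64 clustered promoters and 11.5% of all. TATAAA was found in 3 of the 6 H1 promoters, and of the 4 shown in HIST1H1D and HIST1H1E only. TATAAA and AAACACA can share their letters AAA, and a match describes the letters of a window only.

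H2A and H2B join as dimers on the outer faces of the nucleosome. Of 17 clustered H2A genes tested, 13 fell, and of 18 H2B genes 13 fell, with medians of -0.31 and -0.25. The abundant HIST1H2AG, at 2033, 1917 and 2069 CPM in sgCtrl and 1821, 1923 and 1962 CPM in sgN6AMT1, was not past the threshold and its groups overlapped (log2 fold change -0.08, SE 0.04, edgeR adjusted p 0.2), but it was at -0.17 (adjusted p 1.96e-05) with the CDS length and GC trends removed. HIST2H2AB, in the HIST2 cluster of chromosome 1, fell from 445, 438 and 518 CPM to 311, 337 and 366 CPM (log2 fold change -0.47, SE 0.06, edgeR adjusted p 1.02e-09). The other H2A genes that fell were HIST1H2AB, HIST1H2AC, HIST1H2AD, HIST1H2AE, HIST1H2AI, HIST1H2AJ, HIST1H2AK, HIST1H2AL, HIST2H2AA3, HIST2H2AA4, HIST2H2AC and HIST1H2AA, between -0.41 for HIST1H2AB and -0.21 for HIST1H2AL but for HIST1H2AA. HIST1H2AL was not past the threshold with DESeq2 (adjusted p 0.0524), with total counts (adjusted p 0.0517), without sgCtrl replicate 3 (-0.15, adjusted p 0.11) or without sgN6AMT1 replicate 2 (-0.17, adjusted p 0.104). HIST1H2AH, HIST1H2AM and HIST3H2A, not past the threshold, lay between -0.17 and -0.09.

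HIST1H2AA and its neighbor HIST1H2BA code for the testis forms of H2A and H2B and lie apart from the rest of the cluster. They had the largest H2A and H2B fold changes and very few footprints. HIST1H2AA had 25, 33 and 22 control counts against 13, 9 and 12 (log2 fold change -1.12, SE 0.29, edgeR adjusted p 0.00165), and HIST1H2BA had 32, 60 and 28 against 19, 29 and 16 (log2 fold change -0.79, SE 0.23, edgeR adjusted p 0.00568). Neither was past the threshold with DESeq2 (adjusted p 0.0538 and 0.113), and HIST1H2BA was not without sgCtrl replicate 2 (-0.59, adjusted p 0.117).

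Among H2B genes the most abundant, HIST1H2BG, fell from 1671, 1422 and 1613 CPM to 1168, 1306 and 1238 CPM (log2 fold change -0.34, SE 0.05, edgeR adjusted p 2.43e-08). HIST1H2BH had the largest change of those with over 100 CPM in sgCtrl, from 167, 135 and 158 CPM to 82.0, 102 and 114 CPM (log2 fold change -0.62, SE 0.09, edgeR adjusted p 5.41e-08). HIST1H2BB, HIST1H2BC, HIST1H2BF, HIST1H2BM, HIST2H2BE, HIST2H2BF, HIST3H2BB, HIST1H2BJ, HIST1H2BL and HIST1H2BO fell as well, between -0.42 for HIST3H2BB and -0.14 for HIST1H2BO. The groups of HIST1H2BJ and HIST1H2BL overlapped. The calls of HIST1H2BO, HIST1H2BJ, HIST1H2BL and HIST1H2BM were lost in 7, 5, 4 and 2 of 14 alternatives, DESeq2 among them for each (adjusted p 0.0859, 0.0745, 0.0604 and 0.0804). Total counts ended the calls of HIST1H2BO, HIST1H2BJ and HIST1H2BL, and a mean of at least 50 counts that of HIST1H2BO. Without sgN6AMT1 replicate 1 the values were -0.08 for HIST1H2BO, -0.10 for HIST1H2BJ and -0.23 for HIST1H2BM (adjusted p 0.294, 0.169 and 0.0975). Without sgCtrl replicate 3 they were -0.12 for HIST1H2BO, -0.13 for HIST1H2BJ and -0.12 for HIST1H2BL (adjusted p 0.107, 0.091 and 0.141). Leaving out sgCtrl replicate 1 ended the calls of HIST1H2BO (adjusted p 0.0532) and HIST1H2BJ (adjusted p 0.0704), and leaving out sgN6AMT1 replicate 2 those of HIST1H2BO (adjusted p 0.0569) and HIST1H2BL (adjusted p 0.0521). HIST1H2BD was the only H2B gene with a positive value, at 811, 657 and 780.4 CPM in sgCtrl and 731, 829 and 869 CPM in sgN6AMT1 (log2 fold change 0.12, SE 0.06, edgeR adjusted p 0.156). This gene is listed as a spliced isoform without the stem-loop. Its value passed the threshold in 3 of 14 alternatives, with total counts, without sgCtrl replicate 1 (0.17, adjusted p 0.0161) and without sgN6AMT1 replicate 1 (0.18, adjusted p 0.00583). It was -0.01 with the CDS length and GC trends removed. HIST1H2BN and HIST2H2BF, also listed without a stem-loop, had log2 fold changes of -0.08 (SE 0.06, edgeR adjusted p 0.362) and -0.22 (SE 0.05, edgeR adjusted p 5.54e-04). A set of 5 clustered genes has been reported to give polyadenylated messages as well, namely HIST1H1C, HIST1H2AC, HIST1H2BD, HIST1H2BK and HIST2H2BE. Of these 5, 3 fell (60%), which is near the 64.2% of all clustered genes tested.

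Many H2A and H2B genes point away from each other across a short shared promoter. In 12 such neighbors, with 214 to 250 bases between their transcripts, both genes fell in 7 pairs, 1 of them fell in 4 pairs, and neither passed the threshold for HIST1H2AH (-0.10) and HIST1H2BK (-0.09). The closest values were those of HIST1H2AC (-0.29) and HIST1H2BC (-0.29), and the farthest apart, besides the testis pair, were those of HIST1H2AK (-0.40) and HIST1H2BN (-0.08). Over the 12 pairs the log2 fold changes had a Pearson correlation of 0.82 and a Spearman correlation of 0.36, which are across genes of the same 6 libraries. Without the testis pair the Pearson correlation was 0.27, so that it rested on that pair.

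H3 and H4 form the tetramer at the center of the nucleosome. Of 14 clustered H3 genes tested, 6 fell, with a median of -0.25. HIST1H3F had the largest change, from 272, 243 and 265 CPM to 152, 149 and 156 CPM (log2 fold change -0.77, SE 0.07, edgeR adjusted p 2.52e-16). HIST1H3J fell from 718, 643 and 735 CPM to 512, 482 and 518 CPM (log2 fold change -0.47, SE 0.05, edgeR adjusted p 6.92e-12). HIST1H3A, HIST2H3D and HIST2H3PS2 fell by 0.47, 0.36 and 0.33 on the log2 scale. HIST1H3B, the most abundant H3 gene and number 20 of all genes, fell by less, from 2710.0, 2605 and 2825 CPM to 2305, 2442 and 2501 CPM (log2 fold change -0.17, SE 0.04, edgeR adjusted p 0.00145), and still without overlap. HIST1H3D had the largest positive H3 value, at 316, 296 and 313 CPM in sgCtrl and 317, 331 and 307 CPM in sgN6AMT1, with overlapping groups (0.05, SE 0.06, edgeR adjusted p 0.587). HIST1H3H, at 1288, 1068 and 1179.7 CPM in sgCtrl and 1052, 1230.4 and 1325 CPM in sgN6AMT1, was spread as widely within the groups as between them (0.03, SE 0.09, edgeR adjusted p 0.85). HIST1H3E (-0.54, SE 0.34, edgeR adjusted p 0.248) and HIST3H3 (-0.33, SE 0.15, edgeR adjusted p 0.105) had groups without overlap but few counts, 9 to 18 and 48 to 94 per library. HIST1H3G, with 4 to 11 counts per library, did not pass the filter.

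Clustered and variant H3 differ at few residues, but their codons differ widely. The coding bases 238 to 291 are shown for HIST1H3B, an H3.1 gene, for HIST2H3A, an H3.2 gene, and for H3F3A, with capitals for codons that give another residue than in HIST1H3B (GENCODE release 44 transcripts, GRCh38).
HIST1H3B: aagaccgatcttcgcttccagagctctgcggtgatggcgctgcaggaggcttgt
HIST2H3A: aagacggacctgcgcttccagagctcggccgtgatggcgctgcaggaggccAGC
H3F3A: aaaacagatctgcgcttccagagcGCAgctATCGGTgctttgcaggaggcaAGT
H3F3A differed from HIST1H3B at 5 residues and at 90 of 408 coding bases, and HIST2H3A at 1 residue and 70 bases. None of the 30-base stretches of H3F3A occurred in another listed transcript, so its footprints can be told from those of the clustered genes. H3F3A had 1709, 1702 and 1782 CPM in sgCtrl and 1651, 1613 and 1609.6 CPM in sgN6AMT1, a small difference without overlap that did not pass the threshold (log2 fold change -0.09, SE 0.04, edgeR adjusted p 0.118). It passed with the CDS length and GC trends removed (-0.21, adjusted p 3.53e-07). Its share of the H3 footprints per kilobase of the genes chosen here was 14.3%, 15.5% and 14.8% in sgCtrl and 16.8%, 15.5% and 14.4% in sgN6AMT1, and the groups overlapped. The H3 genes H3F3B, H3F3C and CENPA are not in this share.

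Of 14 clustered H4 genes tested, 7 fell and 1 rose, with a median of -0.18. HIST1H4A fell from 296, 288 and 302 CPM to 213, 213 and 234 CPM (log2 fold change -0.43, SE 0.06, edgeR adjusted p 6.31e-08) and HIST1H4C from 1278, 1304 and 1336 CPM to 1072, 1097 and 1067 CPM (log2 fold change -0.28, SE 0.05, edgeR adjusted p 8.69e-07). HIST1H4H, HIST2H4A, HIST2H4B, HIST1H4E and HIST1H4B fell by 0.28, 0.27, 0.20, 0.20 and 0.16 on the log2 scale. HIST1H4B was not past the threshold with total counts (adjusted p 0.0967) or without sgCtrl replicate 1 (-0.12, adjusted p 0.0986). The most abundant, HIST1H4J, had 1651, 1579 and 1637 CPM in sgCtrl and 1503, 1519.9 and 1708 CPM in sgN6AMT1, and its groups overlapped (-0.04, SE 0.05, edgeR adjusted p 0.55), while with the CDS length and GC trends removed it was at -0.14 (adjusted p 5.54e-04). HIST1H4D was the 1 clustered gene that rose, from 404, 409 and 442 CPM to 491, 493 and 466 CPM (log2 fold change 0.21, SE 0.06, edgeR adjusted p 0.00199), with all depleted libraries above all controls. With the CDS length and GC trends removed it was at 0.07 (adjusted p 0.268). HIST1H4L had the largest positive H4 value but only 14, 37 and 25 control counts against 30, 34 and 28 (0.38, SE 0.24, edgeR adjusted p 0.238), and HIST4H4 the largest negative value, at 35, 33 and 31 against 19, 28 and 19 counts (-0.48, SE 0.24, edgeR adjusted p 0.128), which passed with the CDS length and GC trends removed (-0.60, adjusted p 0.0414). HIST1H4F, with 2 to 7 counts per library, did not pass the filter.

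Most H4 genes code for the same protein by different codons, and the 14 with a matched CDS gave 12 distinct coding sequences and 2 distinct proteins. The first 60 coding bases are shown for HIST1H4J and HIST1H4K, which are identical copies, and for the genes that fell and rose most clearly, HIST1H4A and HIST1H4D, with capitals where a base differs from HIST1H4J.
HIST1H4J: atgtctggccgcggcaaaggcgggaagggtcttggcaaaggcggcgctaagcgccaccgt
HIST1H4K: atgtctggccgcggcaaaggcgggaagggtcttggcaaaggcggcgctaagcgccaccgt
HIST1H4A: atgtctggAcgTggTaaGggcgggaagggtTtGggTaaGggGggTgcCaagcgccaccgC
HIST1H4D: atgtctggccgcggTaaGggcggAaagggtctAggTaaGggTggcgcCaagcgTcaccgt
Over the 309 coding bases HIST1H4A differed from HIST1H4J at 44 and HIST1H4D at 50. Of the 30-base stretches of HIST1H4A 1.07%, and of HIST1H4D 3.21%, occurred in another listed transcript, so that the opposite changes of these genes could be read apart.

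A footprint from a stretch that is repeated in another transcript cannot be assigned with certainty, and the counts of close copies are uncertain one by one. Of 69 clustered genes with a matched CDS, 31 shared at least 20% of their 30-base stretches with another listed transcript, 9 shared all of them and 9 shared none. Identical CDS were found for HIST1H4J and HIST1H4K (-0.04 and -0.07), HIST2H2AA3 and HIST2H2AA4 (-0.25 and -0.24), HIST2H3A and HIST2H3C (-0.08 and -0.13) and HIST2H4A and HIST2H4B (-0.27 and -0.20), as well as for the variants H2AFB2 and H2AFB3. HIST1H2AD shared 98.6% and HIST1H3D all of its stretches with the listed gene RP1-34B20.21 (-0.08, SE 0.05, edgeR adjusted p 0.256), and HIST1H2BK shared most of its stretches with H2BFS (-0.11, SE 0.05, edgeR adjusted p 0.0778). Of the 34 clustered genes tested that shared under 20%, 22 fell and 1 rose, with a median of -0.32. Of the 17 that shared 20% to 80%, 11 fell, with a median of -0.18, and of the 14 that shared over 80%, 8 fell, with a median of -0.22. Genes whose reads can be told apart were thus among those that fell.

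**Figure D4:**
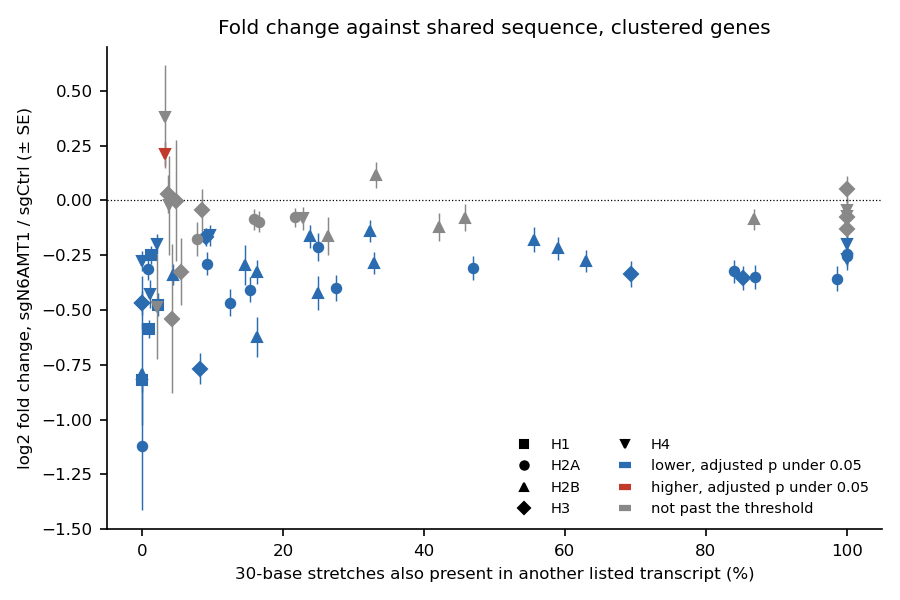
Log2 fold change (sgN6AMT1 over sgCtrl, vertical axis, ± SE) of the 65 clustered genes tested with a matched CDS against the share of their 30-base stretches found in another listed transcript (horizontal axis, %). Symbols give the histone type and colors the call. Genes that share under 20% span -1.12 to 0.38, and genes that share over 80% lie between -0.36 and 0.05.

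By cluster, 32 of 51 HIST1 genes tested fell and 1 rose (median -0.25), 10 of 12 HIST2 genes fell (median -0.26), and 1 of 3 HIST3 genes, HIST3H2BB, fell. Among all genes tested, 13.9% were lower and 12.9% higher. The 12 HIST2 genes include the identical copies HIST2H2AA3 and HIST2H2AA4, HIST2H3A and HIST2H3C, and HIST2H4A and HIST2H4B. Reads cannot tell such copies apart, so their calls are not separate. The HIST1 genes form 4 stretches of chromosome 6 when cut at gaps over 200000 bases, and the stretches differed in their counts. In the first, chr6:25726063-25727345, both testis genes fell. In the second, chr6:26017032-26273412, 18 of 26 genes tested fell and 1 rose, with a median of -0.29. In the third, chr6:27132316-27147562, only HIST1H2BJ of 5 genes was past the threshold (-0.16, SE 0.05, edgeR adjusted p 0.0131, a call lost in 5 of 14 alternatives), the median was -0.09, and the groups overlapped for all 5. HIST1H2AG of this stretch also passed with the CDS length and GC trends removed (-0.17). In that setting 62 of the 74 histone genes tested were lower. Values of HIST1H2AH, HIST1H2BK and HIST1H4I in that setting are not given here, so the stretch cannot be set apart there. In the fourth, chr6:27807479-27893891, 9 of 16 fell, with a median of -0.16. The 5 genes of the third stretch, HIST1H2AG, HIST1H2AH, HIST1H2BJ, HIST1H2BK and HIST1H4I, were all abundant, at 654 to 2006 CPM in sgCtrl. The difference between stretches was not tested, and HIST1H2BB and HIST1H4H could not be placed.

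**Figure D5:**
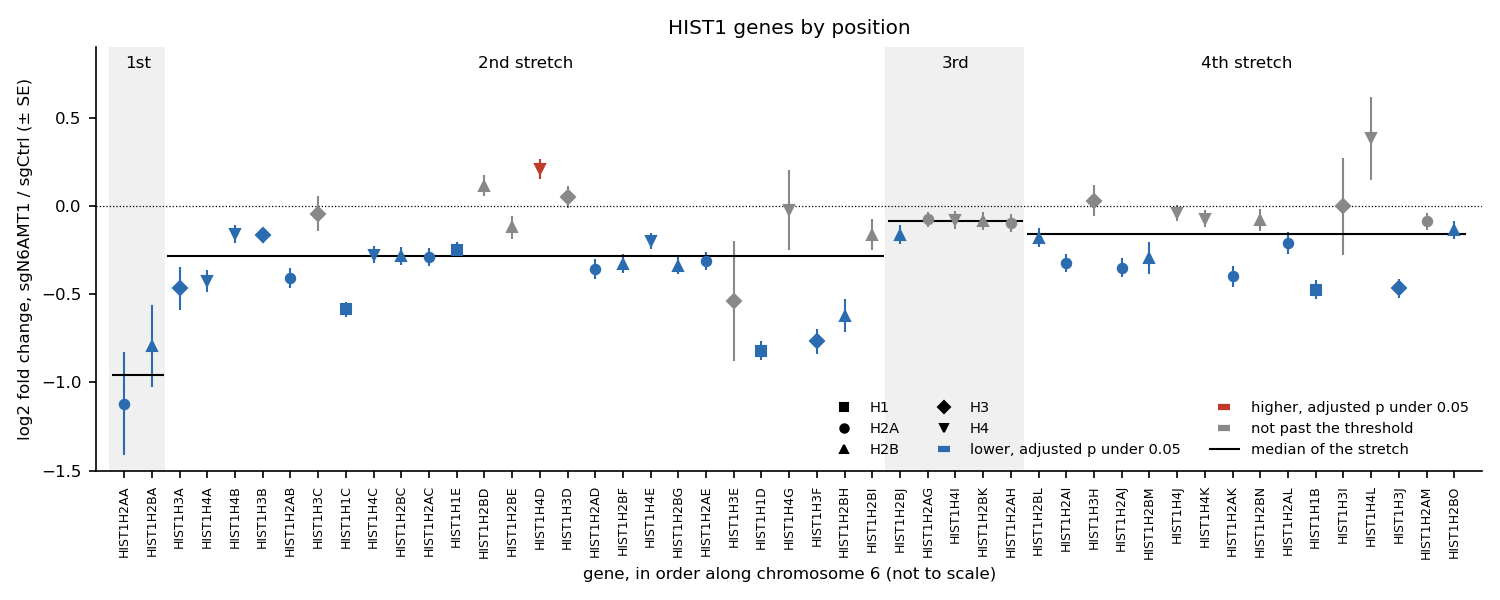
Log2 fold change (sgN6AMT1 over sgCtrl, vertical axis, ± SE) of the HIST1 genes tested in their order along chromosome 6 (horizontal axis, not to scale), in 4 stretches with their medians as black lines. Symbols give the histone type and colors the call. The 5 genes of the third stretch lie between -0.16 and -0.08, and HIST1H1D, HIST1H3F and HIST1H2BH, at -0.82 to -0.62, lie near the end of the second.

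The variants were described singly. H2AFV, which codes for a form of H2A.Z, fell from 143, 162 and 159 CPM to 124, 124 and 137 CPM (log2 fold change -0.28, SE 0.08, edgeR adjusted p 0.00528). H2AFZ, the main H2A.Z gene, had 834, 828 and 847 CPM in sgCtrl and 784, 815 and 794 CPM in sgN6AMT1, without overlap and not past the threshold (-0.07, SE 0.05, edgeR adjusted p 0.325), and was at -0.18 (adjusted p 7.76e-05) with the CDS length and GC trends removed. H2AFY, which codes for macroH2A with its large C-terminal domain, rose from 194, 193 and 191 CPM to 218, 229.8 and 233 CPM (log2 fold change 0.23, SE 0.07, edgeR adjusted p 0.005). With DESeq2 neither H2AFV (adjusted p 0.0569) nor H2AFY (adjusted p 0.0663) passed the threshold, and H2AFY was at 0.13 (adjusted p 0.0898) with the CDS length and GC trends removed.

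H2AFX, the H2A form phosphorylated at DNA breaks and the variant with a stem-loop, had 342, 299.9 and 313 CPM in sgCtrl and 255, 276 and 325 CPM in sgN6AMT1, so that 1 depleted library lay among the controls (-0.16, SE 0.07, edgeR adjusted p 0.0615). Without that library, sgN6AMT1 replicate 3, it was at -0.26 (adjusted p 0.00165), and without sgCtrl replicate 2 at -0.21 (adjusted p 0.0367). It was also past the threshold with the CDS length and GC trends removed (-0.22, adjusted p 4.92e-04) and with no filter (-0.17, adjusted p 0.0383). Its listed isoform is annotated as a target of nonsense-mediated decay. H2AFJ had 16, 11 and 11 control counts against 12, 11 and 7 (-0.24, SE 0.36, edgeR adjusted p 0.682), and H2AFY2, H2AFB1, H2AFB2 and H2AFB3 had no counts. Of the H2A footprints per kilobase of the genes chosen here, H2AFZ and H2AFV together made up 6.50% ± 0.272 (SD, n = 3) in controls against 7.10% ± 0.302 (SD, n = 3) after depletion, with overlapping groups. Of 7 further histone genes listed outside the symbol rule, 6 were among the genes counted. Of these only CENPA, the centromeric H3 (0.44, SE 0.21, edgeR adjusted p 0.105), and H3F3C (0.03, SE 0.07, edgeR adjusted p 0.807) passed the filter. H2BFS (-0.11, SE 0.05, edgeR adjusted p 0.0778) and RP1-34B20.21 (-0.08, SE 0.05, edgeR adjusted p 0.256), which share sequence with clustered genes and were not among the 7, also passed it.

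The genes that make and handle histone messages and proteins were examined as lists. Of 26 genes for 3′ processing and turnover of histone messages, 5 (19.2%) fell and 1 rose, with a median of 0.00, against 13.9% lower and 12.9% higher of all genes tested. SLBP had 179.8, 174 and 179 CPM in sgCtrl and 168, 156 and 187 CPM in sgN6AMT1 (log2 fold change -0.06, SE 0.07, edgeR adjusted p 0.57), and NPAT, the coactivator of histone transcription, was at 0.01 (SE 0.13, edgeR adjusted p 0.96). Those past the threshold were LSM10 of the U7 particle (0.77), COIL of Cajal bodies (-0.36), CSTF2 (-0.33) and the Sm protein gene SNRPE (-0.30), and, outside the naming rule and named after their values were seen, SNRPG (-0.26) and CPSF3 (-0.22), whose product cuts histone messages. LSM10 rested on 14, 16 and 17 counts against 21, 25 and 29, and the groups of CSTF2 overlapped. The calls of LSM10, CSTF2 and COIL were lost in 4, 4 and 2 of 9 alternatives, with DESeq2 for each (adjusted p 0.236, 0.101 and 0.0857). With DESeq2, 2 genes of the list were lower, SNRPE among them, and 0 were higher. At most 1 of the calls of SNRPG and CPSF3 thus held there, and neither gene was followed singly through the alternatives. LSM10 was also not past the threshold without sgCtrl replicate 2 (0.59), sgN6AMT1 replicate 2 (0.83) or sgN6AMT1 replicate 3 (0.55). CSTF2 was not without sgCtrl replicate 1 (-0.23), sgCtrl replicate 3 (-0.28) or sgN6AMT1 replicate 1 (-0.29), and COIL was not without sgN6AMT1 replicate 2 (-0.32).

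Of 28 histone chaperone and deposition genes, 11 (39.3%) fell and 1 rose, with a median of -0.12, against the same 13.9% and 12.9% of all genes. CHAF1B, a subunit of the chromatin assembly factor that works behind the replication fork, fell from 71.3, 83.4 and 82.3 CPM to 40.8, 42.3 and 45.6 CPM (log2 fold change -0.89, SE 0.12, edgeR adjusted p 8.39e-10). The chaperone genes DNAJC9 (-0.59, SE 0.09) and TONSL (-0.55, SE 0.12) and UBN2 of the HIRA complex (-0.41, SE 0.15) also fell, at edgeR adjusted p 9.01e-08, 1.21e-04 and 0.028. The call of UBN2 was lost in 5 of 9 alternatives, namely DESeq2 (adjusted p 0.218), total counts (adjusted p 0.0615), and without sgCtrl replicate 2 (-0.36), sgN6AMT1 replicate 2 (-0.43) or sgN6AMT1 replicate 3 (-0.32). ASF1B, a chaperone of H3 and H4 named after its value was seen, rose (0.39, SE 0.11, edgeR adjusted p 0.00374). With DESeq2, 7 genes of this list were lower and 0 were higher, so the call of ASF1B was lost there.

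Of 23 S phase genes tested, 7 (30.4%) fell and 4 rose, with a median of -0.04, against 13.9% and 12.9% of all genes. With total counts 4 were lower and 5 higher, against 10.6% and 17% of all genes tested. With DESeq2 these numbers were 5 and 2, and with the replicate block 5 and 3. POLA1, the catalytic subunit of DNA polymerase alpha, fell from 121, 127 and 117 CPM to 62.7, 48.4 and 75.5 CPM (log2 fold change -0.99, SE 0.10, edgeR adjusted p 2.16e-13), and CCNE2 (-0.62, SE 0.15, edgeR adjusted p 7.01e-04) and CDC45 (-0.29, SE 0.06, edgeR adjusted p 4.42e-05) fell, while the licensing factor CDT1 rose (0.32, SE 0.08, edgeR adjusted p 5.50e-04) with overlapping groups. The S phase genes thus changed in both directions, and their part in the lower histone footprints was not tested.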

How the data were processed

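Ribosome-protected fragments were sequenced from 3 sgCtrl and 3 sgN6AMT1 cultures, which came from separate infections. Per the study's methods, the authors trimmed adapters with cutadapt, selected footprint lengths, aligned to GRCh38 with HISAT2, removed rRNA and tRNA, realigned with bowtie2 to 1 canonical transcript per gene and summed riboWaltz P-sites over coding sequences. They also counted reads on genes, and which of these the deposited table of raw counts per gene holds is not given in the sources used here. Either way, how reads of near-identical histone genes were split is not stated. Removal of PCR duplicates is not given in the sources used here, and the precision of a gene is limited by its count. Counting of reads on strand is not stated.

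Counts were tested with the quasi-likelihood test of edgeR 4.0.16 (R 4.3.3) on all 9202 genes that passed filterByExpr (minimum count 10), with TMM normalization, robust dispersion, sgN6AMT1 against sgCtrl and Benjamini-Hochberg adjustment over all of them (threshold 0.05). Alternatives were DESeq2 1.42.0, limma-voom (limma 3.58.1), RLE factors, total counts, no filter, a mean of at least 50 counts, removal of CDS length and GC trends (loess, span 0.5), a replicate block and leaving out each library. The procedure was tested on simulated data. Groups were taken from the sample labels. Transcripts were matched to GENCODE release 44 for 17687 of 19330 genes (91.5%), without HIST1H2BB and HIST1H4H. Shared sequence was counted in stretches of 30 bases. Promoters were taken from RefSeq. Protein sequences and RNA sequencing were not used here.

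The members and gene lists were chosen with earlier results of these data known. The genes named were all tested variants, all clustered genes past the threshold, the most abundant and the largest changes of each type, SLBP, NPAT and the 4 largest called changes of each list. Genes named for a shared sequence, a divergent pair, a missing stem-loop, a position, or as HIST1H3H, were named after their values were seen.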

Additional observations from a re-analysis of the deposited data

How the results depend on the processing

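The number of histone genes called lower was between 36 with DESeq2 and 62 with the CDS length and GC trends removed, and 40 to 50 with 1 library left out. The number called higher was 1 with DESeq2, 4 with total counts and 0 with those trends removed, and 2 to 4 with 1 library left out. The clustered median was -0.35 with the trends removed. The variant median was -0.037 with total counts, -0.054 with a mean of at least 50 counts and -0.21 with the trends removed, and -0.11 to -0.072 with 1 library left out. The log2 ratio of the H1 sum was -0.47, against -0.41 with total counts and a median of -0.53 with genes taken singly, and that of the H4 sum was -0.15, against -0.10 with total counts. Processing genes past the threshold numbered 2 with DESeq2 and 3 to 6 with 1 library left out, chaperone genes 7 and 8 to 14, and S phase genes 7 and 6 to 11. Over all genes, DESeq2 called 741 lower and 588 higher, against 1282 and 1191 with edgeR. Values that changed sign were not past the threshold: H2AFJ without sgCtrl replicate 1 (0.056), HIST1H2BD and HIST1H3D with the trends removed (-0.0083 and -0.047), HIST1H4J with total counts (0.013), and NPAT with DESeq2 (-0.0058), with the replicate block (-0.0050), and between -0.12 and 0.097 with 1 library left out. Same-numbered libraries correlated at -0.061, 0.020 and 0.016 in their deviations, so the numbers were not read as pairs, and with the replicate block 45 histone genes were lower and 2 were higher. The cause of these differences was not tested. Members with under 100 counts, such as HIST1H2AA and HIST4H4, are limited by depth.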
